A study of Canis lupus familiaris with 24 samples.

Results

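This comparison sets 2 end states of epithelial-mesenchymal transition (EMT) side by side, both reached in cells treated with TGFb and both sampled at day 4. The members are the 3 treated libraries of the subline MDCK-NBL2, whose labelled state is full EMT, and the 3 treated libraries of the subline MDCK-II, whose labelled state is partial EMT. They were chosen by their labels, with earlier results of these data known, and make up 6 of the 24 libraries in the series. MDCK is an established line of dog kidney epithelial cells, and MDCK-NBL2 and MDCK-II are sublines of it. All 6 libraries are stranded mRNA libraries from cells that received TGFb and no siRNA, and the labels name no genetic change in either subline. The rest of the series holds both sublines untreated at day 0 and at day 4, and treated MDCK-NBL2 cells with a control siRNA (siCTR, labelled full EMT) or an siRNA against the transcription factor PRRX1 (siPRRX1, labelled partial EMT). Among the 6 treated libraries without siRNA each state comes from 1 subline, so the state and the subline cannot be told apart. The labels number the replicates without saying whether they are separate cultures, so every p-value here measures the spread between these libraries.

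EMT is the change by which epithelial cells, held together by adherens junctions, tight junctions and desmosomes, lose that organisation and take on the contractile and matrix-producing traits of mesenchymal cells. It is driven by a small set of transcription factors of the Snail, ZEB, Twist and Prrx families, and TGFb, acting through its receptors and the SMAD proteins, is the inducer most used in culture. In a partial EMT, cells keep epithelial features beside the mesenchymal ones, while in a full EMT the mesenchymal program prevails.

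The treated MDCK-NBL2 libraries held 6134929 to 9413761 counts and the treated MDCK-II libraries 8991167 to 27500500, with 14020 to 14315 and 14266 to 15789 genes detected. On the first principal component, which took 88.3% of the variance of the 6 libraries, the sublines lay on opposite sides. Levels are given as CPM, which are counts scaled to a common library total after TMM adjustment, in the order of replicates 1, 2 and 3. Differences are log2 fold changes of MDCK-NBL2 over MDCK-II with their standard error (SE), and a gene is called higher or lower where the adjusted p is under 0.05. Epithelial kidney markers were present in both groups, among them CDH1 and PAX8, while CDH16 was listed at 0 in treated MDCK-NBL2. Of 6 kidney epithelium markers tested, 4 were lower in treated MDCK-NBL2 (66.7%) and 0 higher, with a median log2 fold change of -0.58. Most markers of other cell types were near the detection limit, with FLT1 and PDGFRA the exceptions. PTPRC, CD3E and MS4A1 of leukocytes and FAP and DPT of fibroblasts had no count, and the endothelial genes PECAM1 and CDH5 were under 1 CPM in both groups. The summed level of the 7 fibroblast markers was 9.62 to 23.8 CPM in MDCK-NBL2 and 13.4 to 48 CPM in MDCK-II. That of the 9 leukocyte markers was 2.68 to 3.84 and 4.13 to 5.95 CPM. The endothelial sum was 350 to 426 and 317 to 405 CPM over 7 markers, nearly all from FLT1. In bulk libraries, fewer cells with a transcript and less of it per cell cannot be told apart.

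The treated sublines differed widely. Of 11607 genes tested, 6383 were called, which is 55.0%, with 3202 (27.6%) higher and 3181 (27.4%) lower in MDCK-NBL2. Among these, 1229 were at least 2-fold higher and 1276 at least 2-fold lower. The 3 and 3 libraries did not overlap for 7448 genes, or 64.2%. Because calls were this common, each gene list below is read against the 27.6% and 27.4% of all genes tested, whose median log2 fold change was -0.02. Among lists with 9 or more tested members, collagen modification (73.7%), proteoglycan (72.7%), contractile (71.4%) and laminin genes (70%) had the largest shares higher in MDCK-NBL2. The cell cycle, interferon response, sterol synthesis and chemokine lists had the largest shares lower.

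**Figure D1:**
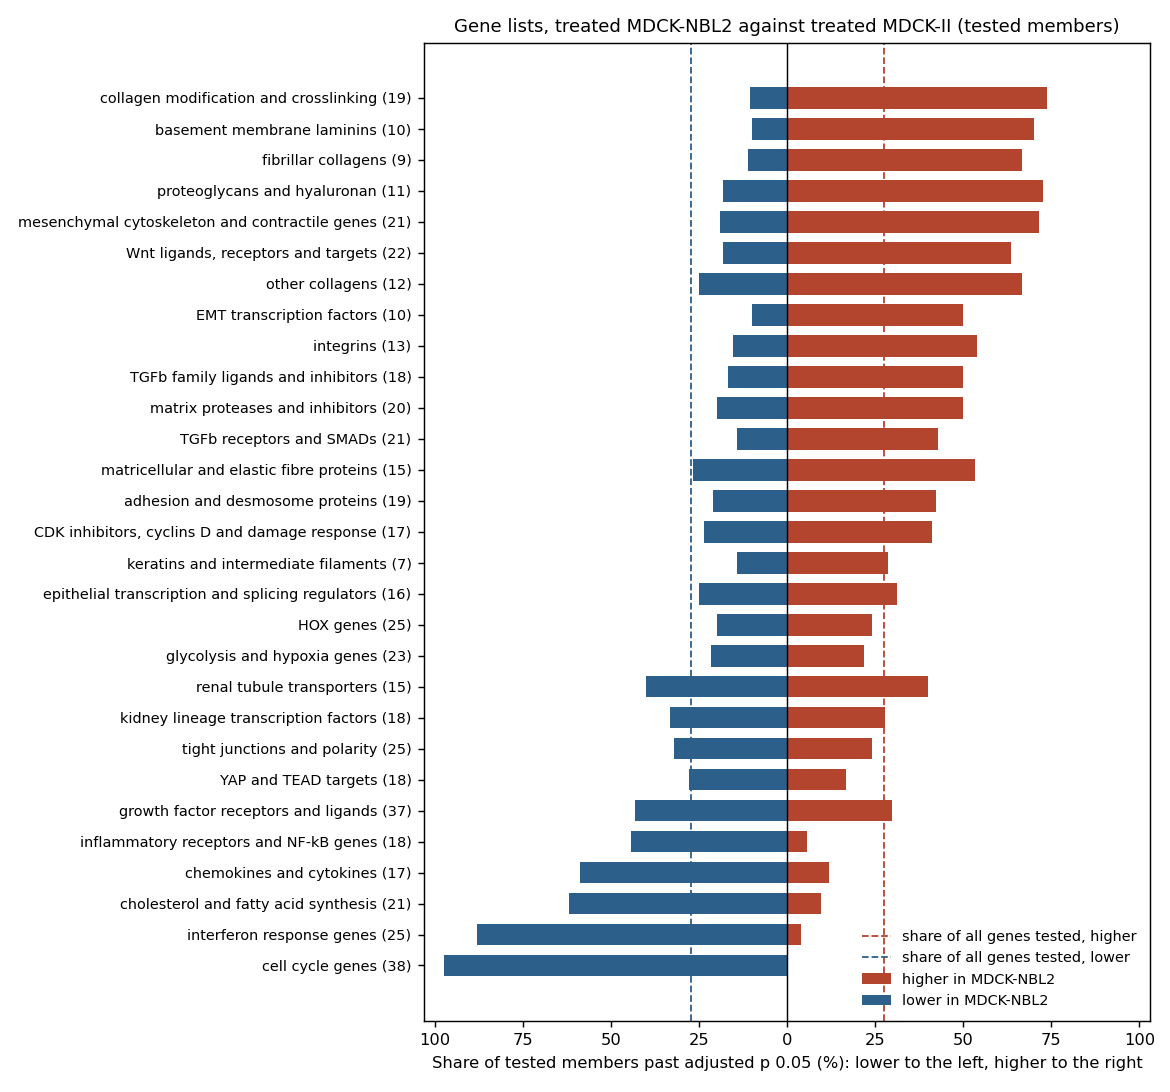
Share of the tested members of each gene list (percent, x axis) that were higher (right) or lower (left) in treated MDCK-NBL2 than in treated MDCK-II at an adjusted p under 0.05, with the number of tested members in brackets and dashed lines at the shares over all genes tested, 27.6% and 27.4%. The bars run from 73.7% higher for collagen modification genes to 97.4% lower for cell cycle genes.

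Several EMT transcription factors were higher in the full EMT cells. Of 10 tested factors, 5 were higher (SNAI1, PRRX1, PRRX2, FOXC2 and SOX4) and 1 was lower (SOX9), with a list median of 0.72. PRRX2, a homeobox factor of mesenchyme, was at 28.6, 29.2 and 29.3 CPM in MDCK-NBL2 and at 12.3, 14.3 and 10.2 CPM in MDCK-II, a log2 fold change of 1.22 ± 0.14 (SE, adjusted p = 0.00012). FOXC2, a forkhead factor of mesenchyme, was at 10.6, 9.14 and 7.21 CPM against 1.9, 2.26 and 2.68 CPM, a difference of 1.97 ± 0.23. For both genes every MDCK-NBL2 library lay above every MDCK-II library.

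SNAI1, the founding Snail repressor of CDH1, was at 27.6, 18 and 18.6 CPM in MDCK-NBL2 and 10.9, 14.7 and 10.8 CPM in MDCK-II (0.78 ± 0.21, adjusted p = 0.011). PRRX1, the target of the siRNA used elsewhere in the series, was at 37.2, 8.89 and 5.71 CPM against 3.79, 5.84 and 3.01 CPM (1.91 ± 0.62, adjusted p = 0.028). The PRRX1 groups overlapped, since replicate 3 of MDCK-NBL2 lay below replicate 2 of MDCK-II, and the first MDCK-NBL2 replicate stood far above the rest. That library is also the only one of the 6 whose library number lies outside the range of the others. Within the 6 libraries the number series and this replicate cannot be told apart. The series was a further term in 1 fit of all 24 libraries, whose PRRX1 value is not reported here. Without the first MDCK-NBL2 replicate, PRRX1 differed by 0.73 with an adjusted p of 0.099, and the adjusted p was 0.068 without replicate 1 and 0.077 without replicate 3 of MDCK-II. SOX4, a factor of progenitor cells, was at 91.5, 66.3 and 46.3 CPM against 55.1, 39.8 and 33.7 CPM (0.66 ± 0.25, adjusted p = 0.047), with overlap. Its call was lost without replicate 1 (adjusted p = 0.19) or 2 (0.094) of MDCK-NBL2 and without replicate 2 (0.12) or 3 (0.14) of MDCK-II.

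SNAI2, a second Snail repressor, was at 148, 143 and 107 CPM against 49.3, 120 and 94.3 CPM (0.58 ± 0.28, adjusted p = 0.11), with the groups overlapping. The zinc finger repressors ZEB1 and ZEB2 went opposite ways without passing the test. ZEB1 was at 12.3, 4.02 and 4.36 CPM against 7.04, 13.3 and 9.93 CPM (-0.64 ± 0.41, adjusted p = 0.21), and ZEB2 was at 3.45, 2.56 and 1.05 CPM against 0.903, 1.28 and 0.446 CPM (1.24 ± 0.48, adjusted p = 0.051). Without the first MDCK-NBL2 replicate, ZEB1 was lower in MDCK-NBL2 by a log2 fold change of -1.31 (adjusted p = 0.0097). SOX9, a factor of kidney progenitors and cartilage, was lower at 40.3, 43 and 25.3 CPM against 135, 168 and 114 CPM (-1.95 ± 0.21, adjusted p = 7.5e-05). Leaving out replicate 1 of MDCK-NBL2 or replicate 3 of MDCK-II lowered the number of factors higher from 5 to 3, and fitting all 24 libraries together lowered it to 2.

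**Figure D2:**
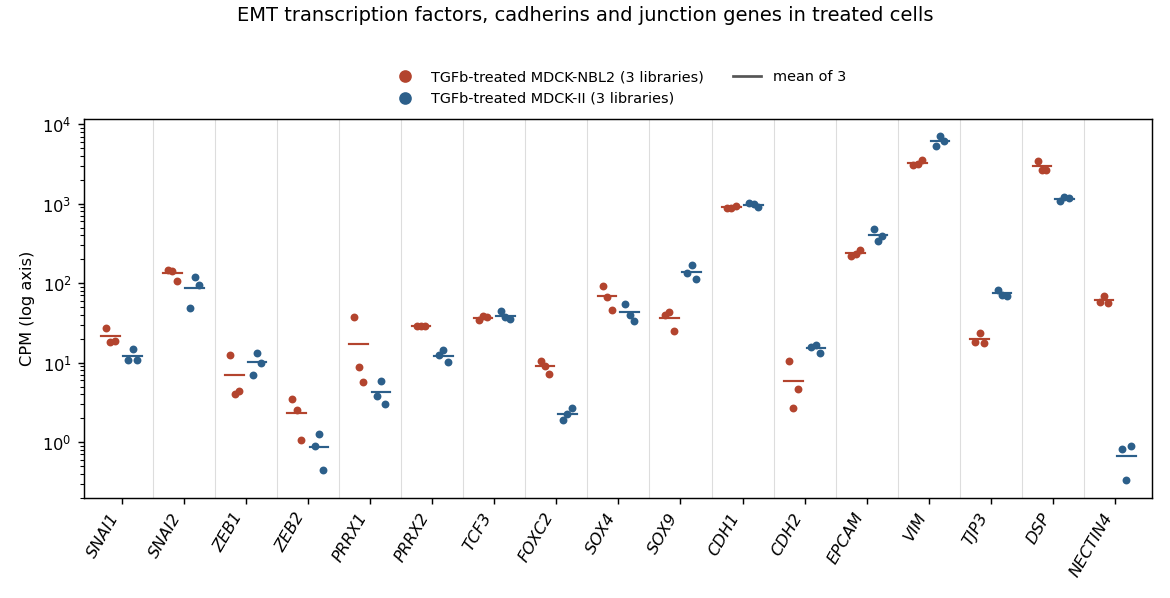
CPM (log axis) of 10 EMT transcription factors and 7 cadherin, filament and junction genes in the 3 treated MDCK-NBL2 libraries (red) and the 3 treated MDCK-II libraries (blue), with a line at each mean. PRRX2, FOXC2, DSP and NECTIN4 lie higher in all 3 MDCK-NBL2 libraries, TJP3, VIM, EPCAM and CDH2 lie lower in all 3, and CDH1 overlaps.

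The 2 cadherins most used to follow EMT did not mirror each other. CDH1, which encodes E-cadherin of adherens junctions, was at 882, 879 and 943 CPM in MDCK-NBL2 and 1020, 982 and 910 CPM in MDCK-II, so the groups overlapped and the difference of -0.11 ± 0.1 did not pass (adjusted p = 0.38). CDH2, which encodes the mesenchymal N-cadherin, was lower in the full EMT cells, at 10.4, 2.68 and 4.66 CPM against 15.6, 16.6 and 13.1 CPM (-1.44 ± 0.37, adjusted p = 0.0093). The call for CDH2 was lost when all 24 libraries were fitted together (-1.40, adjusted p = 0.22), and the difference was -0.36 (adjusted p = 0.79) with the library number series as a further term. VIM, the intermediate filament vimentin of mesenchymal cells, was lower too, at 3060, 3180 and 3530 CPM against 5320, 7150 and 6150 CPM (-0.94 ± 0.17, adjusted p = 0.0015).

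Junction genes went both ways. Of 19 adhesion and desmosome genes tested, 8 were higher and 4 lower in MDCK-NBL2 (42.1% and 21.1%, median 0.09), and of 25 tight junction and polarity genes, 6 were higher and 8 lower (24.0% and 32.0%, median -0.11). DSP, the desmosome plaque protein desmoplakin, was at 3490, 2690 and 2640 CPM against 1090, 1210 and 1180 CPM (1.34 ± 0.16, adjusted p = 0.00011). DSC3, a desmosomal cadherin, was at 258, 337 and 352 CPM against 43.1, 53.3 and 68.7 CPM (2.52 ± 0.19). The desmosomal cadherins DSG3 and DSC2 were higher as well, by 0.84 and 0.77, so 4 desmosome genes were higher in the cells labelled full EMT, while the desmosomal cadherin DSG2 was slightly lower (-0.3 ± 0.1). NECTIN4, an adhesion receptor, was the widest apart of this list, at 58.3, 68.7 and 56.4 CPM against 0.813, 0.329 and 0.893 CPM (6.72 ± 0.25).

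Other adhesion genes were higher in the partial EMT cells. EPCAM, an epithelial surface adhesion molecule, was at 220, 230 and 263 CPM in MDCK-NBL2 against 477, 342 and 393 CPM in MDCK-II (-0.77 ± 0.13, adjusted p = 0.0012), with no overlap. AFDN, which links nectins to actin, was at 110, 110 and 110 CPM against 210, 229 and 193 CPM (-0.95 ± 0.09). TJP3, a tight junction scaffold, was at 18.4, 23.6 and 17.6 CPM against 82.6, 71.1 and 69 CPM (-1.9 ± 0.13, adjusted p = 7e-06). The claudins, the strands of the tight junction, split: CLDN3 (-1.82), CLDN16 (-3.0), CLDN1 (-0.72) and CLDN7 (-0.59) were lower in MDCK-NBL2 and CLDN6 (3.82) was higher, while CLDN4 (0.26, adjusted p = 0.17) did not pass. CLDN2 had no count in MDCK-NBL2 and 10.8, 1.39 and 3.35 CPM in MDCK-II, which is at least 26.5-fold lower when its group total is set to 3 counts. TJP1, the scaffold ZO-1, did not differ beyond its spread (0.1 ± 0.1, adjusted p = 0.44), and OCLN, occludin, was slightly higher in MDCK-NBL2 (0.37 ± 0.09, adjusted p = 0.0089).

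Regulators of the epithelial state were called about as often as genes at large. Of 16 tested, 5 were higher and 4 lower (31.2% and 25%, median -0.25). OVOL2, a repressor of mesenchymal genes, was at 45.3, 48.8 and 54.7 CPM in MDCK-NBL2 and 13.5, 12.3 and 14.4 CPM in MDCK-II (1.89 ± 0.12, adjusted p = 3.6e-06). ESRP1, a splicing factor of epithelial isoforms, was higher by 0.7 ± 0.1, and its relative ESRP2 was lower by a log2 fold change of -0.39 ± 0.1. KLF5, an epithelial Kruppel-like factor, was lower at 76.9, 72.4 and 71.4 CPM against 226, 265 and 252 CPM (-1.76 ± 0.1), and ELF3, an epithelial ETS factor, was lower too (-1.68 ± 0.23). GRHL2, a factor that holds junction genes on, did not pass (-0.32 ± 0.15, adjusted p = 0.1). Of 7 keratin and intermediate filament genes tested, KRT14 (1.77 ± 0.24) and PLEC (0.79 ± 0.18) were higher and VIM lower. KRT14 lost its call with all 24 libraries fitted together (adjusted p = 0.18), and 5 of the filament genes were higher without the first MDCK-NBL2 replicate.

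Contractile genes were mostly higher in the full EMT cells. Of 21 cytoskeletal and contractile genes tested, 15 were higher and 4 lower in MDCK-NBL2 (71.4% and 19%), with a median log2 fold change of 0.98. The libraries did not overlap for 19 of the 21, against 64.2% of all genes tested. ACTA2, the smooth muscle actin of myofibroblasts, was at 690, 1140 and 1090 CPM in MDCK-NBL2 and at 1.44, 12.6 and 6.58 CPM in MDCK-II, a log2 fold change of 7.02 ± 0.58 (adjusted p = 1.7e-05). TAGLN, an actin-binding protein of smooth muscle, was at 668, 1200 and 1010 CPM against 4.42, 28.5 and 14.1 CPM (5.86 ± 0.57). Both genes were present in MDCK-II at low levels, with replicate 1 the lowest and replicate 2 the highest.

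The same wide separation held for CALD1, caldesmon, at 548, 626 and 721 CPM against 1.26, 7.52 and 6.36 CPM (6.88 ± 0.44), and for FLNC, a muscle filamin, at 476, 294 and 267 CPM against 0.181, 0.256 and 0.335 CPM (10.35 ± 0.36). MYL9, a myosin light chain, differed by 5.58 ± 0.41 and CNN2, a calponin, by 4.22 ± 0.3. TGFB1I1, a focal adhesion protein, had no count in treated MDCK-II and 39.1, 72.4 and 70.5 CPM in MDCK-NBL2, at least 998-fold higher. Genes expressed widely in both sublines differed less, TPM1 (tropomyosin) by 1.86 ± 0.13, ACTN1 (an actinin) by 1.16 ± 0.18 and CD44 (a hyaluronan receptor) by 1.01 ± 0.18. The 4 lower members were CDH2, the actin bundler FSCN1 (-1.6 ± 0.17) and the calcium-binding proteins S100A4 (-2.25 ± 0.19) and S100A6 (-0.6 ± 0.16). S100A4, often used as a mesenchymal marker, was at 6.52, 4.63 and 6.01 CPM in MDCK-NBL2 and 25.9, 31.5 and 22.2 CPM in MDCK-II.

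Type I collagen was near 0 in the partial EMT cells and abundant in the full EMT cells. COL1A1 was at 2110, 2150 and 1060 CPM in MDCK-NBL2 and at 0.0903, 0.292 and 0.335 CPM in MDCK-II (12.72 ± 0.46, adjusted p = 2.4e-07). COL1A2 was at 2820, 1380 and 1020 CPM in MDCK-NBL2 with no count in the 3 MDCK-II libraries, at least 25900-fold higher. The 2 genes encode the chains that assemble into 1 fibre, and both lay at the foot of the scale in each MDCK-II library. COL3A1, the collagen of loose tissue, was at 104, 6.33 and 12 CPM with no count in MDCK-II (at least 532-fold higher), and its first MDCK-NBL2 library stood far above the other two.

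Not every fibrillar collagen followed. Of 9 tested, 6 were higher and 1 lower (66.7% and 11.1%, median 1.61). COL5A2 was abundant in both, at 4320, 4700 and 4250 CPM against 3430, 4920 and 4920 CPM, and did not differ beyond its spread (-0.01 ± 0.18, adjusted p = 0.98), while its partner chain COL5A1 was higher in MDCK-NBL2 (1.61 ± 0.15). COL5A3 was lower, at 0.192, 0.365 and 0.15 CPM against 2.53, 2.85 and 2.23 CPM (-3.33 ± 0.41). Of 12 other collagens, 8 were higher and 3 lower (66.7% and 25%, median 2.13). COL12A1, which decorates fibrils, was at 5540, 6710 and 5910 CPM against 390, 522 and 404 CPM (3.78 ± 0.19), COL6A1 of microfibrils differed by 8.19 ± 0.51 and COL15A1 of the basement membrane zone by 5.68 ± 0.51. The lower ones were the basement membrane chains COL4A1 (-1.52 ± 0.22) and COL4A2 (-1.46 ± 0.21), at 57.6 to 120 CPM in MDCK-NBL2 and 183 to 303 CPM in MDCK-II, and the hemidesmosome collagen COL17A1 (-0.66 ± 0.14). With all 24 libraries fitted together, 1 of these 12 was called lower.

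The enzymes that modify and cross-link collagen were higher with it. Of 19 tested, 14 were higher and 2 lower (73.7% and 10.5%, median 0.75). No overlap was seen for 17 of the 19, against 64.2% of all genes tested. LOX, lysyl oxidase, was at 2280, 2180 and 1790 CPM against 307, 831 and 657 CPM (1.79 ± 0.31, adjusted p = 0.0012). The lysyl hydroxylases PLOD1 (1.75 ± 0.1) and PLOD2 (1.61 ± 0.21), the procollagen proteinase BMP1 (1.25 ± 0.15) and the procollagen N-proteinase ADAMTS2 (2.05 ± 0.25) were higher. LOXL2, an oxidase related to LOX, was the other way round, at 251, 220 and 234 CPM against 483, 692 and 672 CPM (-1.4 ± 0.15), and LOXL1 was lower as well (-0.52 ± 0.12). LOXL4 was at 8.63, 7.19 and 6.76 CPM in MDCK-NBL2 and had 1 count in MDCK-II, a ratio of 352 with an exact 95% counting interval of 62.2 to 14000.

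Among matrix glycoproteins, 8 of 15 tested were higher and 4 lower (53.3% and 26.7%, median 0.81). FN1, fibronectin, was at 63100, 55000 and 36500 CPM in MDCK-NBL2 and 6950, 14700 and 8750 CPM in MDCK-II (2.34 ± 0.37, adjusted p = 0.00067), and even the lowest MDCK-NBL2 library lay above the highest MDCK-II library. TGFBI, a TGFb-induced adhesion protein, differed by 1.44 ± 0.21 and FBLN5, a fibulin of elastic fibres, by 2.62 ± 0.11. FBN1, fibrillin, was at 11.1, 8.77 and 5.56 CPM against 0, 0.219 and 0 CPM (5.98 ± 0.56). The 4 lower genes were CCN1 (-1.21 ± 0.16), SPARCL1 (-1.47 ± 0.26) and the fibulins FBLN1 (-1.31 ± 0.13) and FBLN2 (-2.22 ± 0.3). POSTN, THBS2 and VTN had no count in either group, and TNC was under 1 CPM in both.

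Proteoglycans and laminins were also more often higher in MDCK-NBL2. Of 11 proteoglycan and hyaluronan genes, 8 were higher and 2 lower (72.7% and 18.2%, median 1.13). HAS2, a hyaluronan synthase, was at 637, 540 and 573 CPM against 6.32, 12.5 and 11.3 CPM (5.83 ± 0.24), and SDC1, a cell surface syndecan, was at 4100, 3620 and 3120 CPM against 887, 1050 and 972 CPM (1.89 ± 0.16). The 2 lower genes were glypicans, GPC4 at 0.959, 0 and 0.451 CPM against 22.6, 27.8 and 37.2 CPM (-6.14 ± 0.48) and GPC3 (-2.53 ± 0.71), while GPC1 was higher (1.46 ± 0.1). Of 10 laminin and basement membrane genes, 7 were higher and 1 lower (70% and 10%, median 1.29). All 10 were free of overlap, against 64.2% of all genes tested. LAMC1, the common gamma chain, was at 1750, 1380 and 1820 CPM against 465, 439 and 609 CPM (1.7 ± 0.17), and NID2, nidogen, was at 1180, 915 and 1160 CPM against 0.903, 2.48 and 3.12 CPM (8.94 ± 0.32). LAMA4 was at 325, 60.7 and 64 CPM with 1 count in MDCK-II, a ratio of 6190, counting interval 1110 to 244000, and again the first MDCK-NBL2 replicate was the highest. The lower gene was LAMB3 of epithelial laminin (-0.69 ± 0.15), and no member of the list was called lower with all 24 libraries in 1 edgeR fit.

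**Figure D3:**
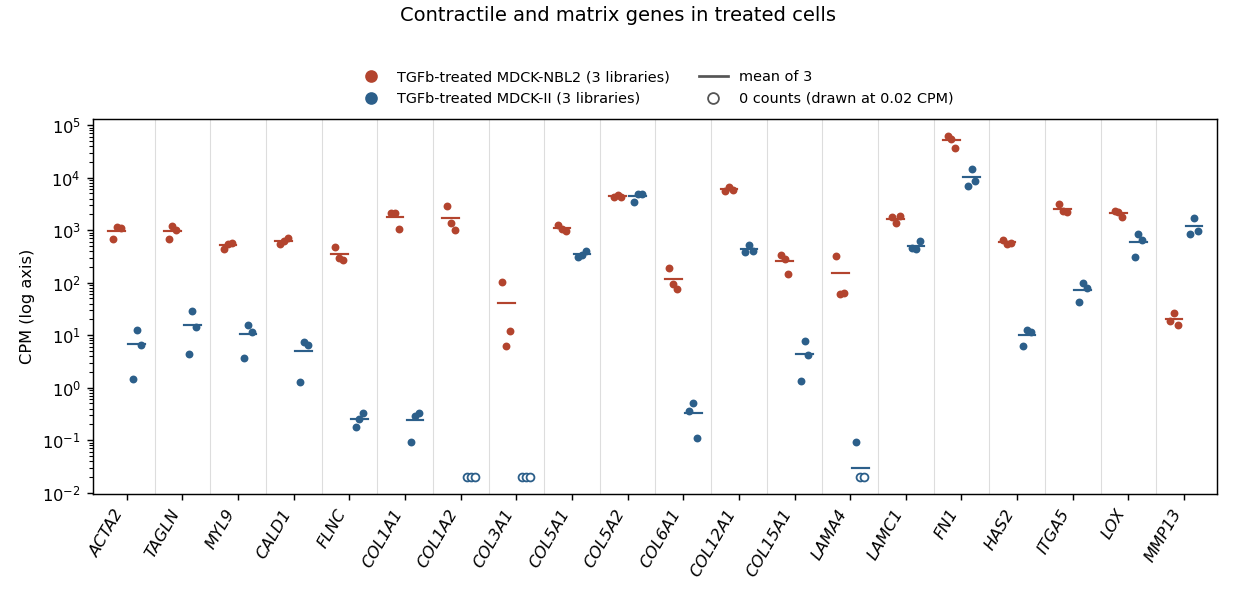
CPM (log axis) of 20 contractile and matrix genes in the 3 treated MDCK-NBL2 libraries (red) and the 3 treated MDCK-II libraries (blue), with a line at each mean and open points for 0 counts. COL1A1, COL1A2 and COL3A1 stand at or near 0 in MDCK-II, COL5A2 overlaps between the sublines, and MMP13 is the gene that lies higher in MDCK-II.

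Receptors for this matrix were higher too. Of 13 integrins tested, 7 were higher and 2 lower (53.8% and 15.4%, median 0.98). ITGA5, the alpha chain of the fibronectin receptor, was at 3110, 2270 and 2170 CPM against 43.2, 96.4 and 77.5 CPM (5.11 ± 0.32, adjusted p = 3.9e-06). ITGAV and ITGB5, which pair in a vitronectin receptor, differed by 1.79 ± 0.16 and 1.55 ± 0.09, and ITGB1, the common beta chain, by 0.98 ± 0.15. ITGB8 (-1.6 ± 0.16) and ITGA9 (-1.17 ± 0.2) were lower, and ITGB3 did not differ beyond its spread (0.03 ± 0.12).

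Matrix proteases divided by enzyme. Of 20 protease and inhibitor genes tested, 10 were higher and 4 lower in MDCK-NBL2 (50.0% and 20%, median 0.83). The libraries did not overlap for 14 of the 20, a share close to the 64.2% of all genes tested. MMP13, a collagenase, was at 18.4, 26.4 and 15.5 CPM in MDCK-NBL2 and 834, 1730 and 967 CPM in MDCK-II (-5.86 ± 0.35, adjusted p = 2.9e-06). The gelatinase MMP9 was at 1.15, 1.95 and 1.2 CPM against 8.49, 58.7 and 15.4 CPM (-4.26 ± 0.83), with replicate 2 of MDCK-II far the highest, and the cathepsin CTSK was lower by a log2 fold change of -4.63 ± 0.28. The fourth lower gene was SERPINE2 (-1.24 ± 0.13). In contrast, the membrane-bound MMP14 (2.06 ± 0.25) and MMP15 (2.48 ± 0.27), the inhibitor TIMP2 (4.1 ± 0.11) and the metalloproteases ADAM12 (at least 510-fold) and ADAM19 (a ratio of 8040, counting interval 1440 to 317000) were higher in MDCK-NBL2.

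The TGFb pathway itself differed in its receptors. Of 21 receptor and SMAD genes tested, 9 were higher and 3 lower (42.9% and 14.3%, median 0.29). TGFBR1, the type I receptor kinase, was at 387, 398 and 472 CPM in MDCK-NBL2 against 78.8, 112 and 104 CPM in MDCK-II (2.08 ± 0.15, adjusted p = 7.8e-06), and TGFBR2, the type II receptor, was at 225, 186 and 244 CPM against 93.7, 115 and 115 CPM (1.01 ± 0.13). The co-receptor TGFBR3 was lower, at 1.53, 0.609 and 0.902 CPM against 4.33, 7.27 and 9.04 CPM (-2.83 ± 0.41). Among the signal carriers SMAD3 was lower (-0.64 ± 0.11), SMAD2 (0.16 ± 0.09) and SMAD4 (0.17 ± 0.09) did not pass, and the inhibitor SMAD7 was higher (0.72 ± 0.11). Of 18 ligand and inhibitor genes, 9 were higher and 3 lower (50.0% and 16.7%, median 0.48), among them TGFB3 (3.89 ± 0.38), TGFB1 (0.64 ± 0.18) and BMP7 (1.29 ± 0.09) higher and TGFB2 (-0.54 ± 0.18) lower. With all 24 libraries fitted together 5 of them were called higher in place of 9.

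Wnt pathway genes were more often higher in MDCK-NBL2, with 14 of 22 tested higher and 4 lower (63.6% and 18.2%, median 0.87). WNT5B, a ligand of the pathway branch without beta-catenin, was at 234, 206 and 190 CPM against 34.4, 55.5 and 38.9 CPM (2.27 ± 0.18), and its receptor ROR2 had no count in MDCK-II and 5.56, 3.17 and 3.31 CPM in MDCK-NBL2 (at least 60.6-fold higher). WNT7A was the other way round, at 41.1, 57.3 and 26.6 CPM against 138, 238 and 166 CPM (-2.12 ± 0.28). AXIN2, the usual target of beta-catenin, differed by 0.8 ± 0.19. Targets of YAP and TEAD did not go 1 way, with 3 of 18 higher and 5 lower (16.7% and 27.8%, median -0.27). ANKRD1, a TEAD target, was higher (0.7 ± 0.2), AMOTL2 was lower (-0.84 ± 0.12), and CCN2 did not pass (0.65 ± 0.3, adjusted p = 0.095).

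Chemokines were more often higher in the partial EMT cells. Of 17 chemokine and cytokine genes tested, 2 were higher and 10 lower in MDCK-NBL2 (11.8% and 58.8%, median -0.69). CCL2, which attracts monocytes, was at 0.959, 0.974 and 1.5 CPM in MDCK-NBL2 and 42.9, 236 and 81.6 CPM in MDCK-II (-6.72 ± 0.81, adjusted p = 0.00014), and MDCK-II replicate 2 was the highest. CX3CL1, fractalkine, was at 19.2, 14.7 and 15.2 CPM against 108, 94.1 and 89.4 CPM (-2.58 ± 0.13), and CSF2, a growth factor of myeloid cells, was at 21.1, 25 and 23 CPM against 63.4, 92.7 and 70.3 CPM (-1.72 ± 0.15). SPP1, osteopontin, was abundant in both and lower in MDCK-NBL2 (1420, 1610 and 1880 against 10200, 7240 and 6470 CPM, -2.29 ± 0.22).

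CCL5 had no count in MDCK-NBL2 and 2.98, 2.45 and 2.12 CPM in MDCK-II (at least 16.8-fold lower). CXCL10, an interferon-induced chemokine, was lower with a ratio of 56.5 (counting interval 15.5 to 469). The 2 genes higher in MDCK-NBL2 were IL11, a cytokine of fibrosis, at 22.1, 20.3 and 12.9 CPM against 0.361, 0.548 and 0.335 CPM (5.3 ± 0.31), and IL34 (0.78 ± 0.24). CXCL8 varied within both groups, at 10.6, 21.9 and 32.8 CPM against 0.903, 15.6 and 6.03 CPM, and did not pass (adjusted p = 0.11). IL1B and TNF had no count in either group and IL6 was under 1 CPM, so no difference could be detected for them at this depth. Without replicate 2 of MDCK-II, 4 genes of this list were higher in MDCK-NBL2.

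Inflammatory receptor and NF-kB genes formed 1 list, and NF-kB is a factor that drives many of these chemokines. Of its 18 genes tested, 8 were lower in MDCK-NBL2 and 1 was higher (44.4% and 5.56%, median -0.4). BIRC3, an NF-kB target and inhibitor of apoptosis, was at 6.71, 9.5 and 11.1 CPM against 81.9, 292 and 114 CPM (-4.15 ± 0.49). NFKBIA, the feedback inhibitor, was at 7.48, 13.2 and 10.4 CPM against 27.8, 70.9 and 32.9 CPM (-2.09 ± 0.37), and TNFAIP3, another feedback inhibitor, differed by -1.81 ± 0.3. CXCR4, a chemokine receptor, was at 0.767, 0.244 and 1.65 CPM against 11.6, 19.2 and 17.2 CPM (-4.23 ± 0.43). PTGS2 (-0.27 ± 0.35), ICAM1 (0.3 ± 0.19) and RELA (-0.18 ± 0.09) did not pass. The gene higher in MDCK-NBL2 was REL (0.61 ± 0.17).

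Interferon response genes were mostly lower in the full EMT cells. Of 25 tested, 22 were lower and 1 was higher (88.0% and 4.0%), with a median log2 fold change of -1.71. OAS2, an antiviral oligoadenylate synthetase, was at 23.2, 33 and 25.7 CPM in MDCK-NBL2 and 327, 267 and 249 CPM in MDCK-II (-3.36 ± 0.16, adjusted p = 9.8e-07). IFIT3 was at 0.384, 0.365 and 0.752 CPM against 24.7, 20.7 and 17.3 CPM (-5.37 ± 0.29), and MX1, an antiviral GTPase, was at 8.06, 9.5 and 9.17 CPM against 177, 55.6 and 46.5 CPM (-3.37 ± 0.52). For these 3 genes all MDCK-II libraries lay above all MDCK-NBL2 libraries, and for MX1 replicate 1 of MDCK-II stood highest.

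Genes of antigen presentation in this list were lower too. PSMB9, an immunoproteasome subunit, had no count in MDCK-NBL2 and 14.8, 16.4 and 5.02 CPM in MDCK-II (at least 93-fold lower). The peptide transporter TAP1 (-2.62 ± 0.23) and B2M, the light chain of class I molecules (231, 207 and 180 against 705, 764 and 545 CPM, -1.71 ± 0.15), were lower. The factor IRF1, which acts downstream of interferon, was lower by a log2 fold change of -2.05 ± 0.18. IRF9 (0.01 ± 0.2) and MX2 (-0.71 ± 0.31) did not pass.

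Cell cycle genes were lower in MDCK-NBL2 with 1 exception. Of 38 tested, 37 were lower (97.4%), with a median log2 fold change of -2.6, and 35 were at least 2-fold lower. The remaining gene was PCNA, described below. MKI67, the proliferation antigen Ki-67, was at 2.69, 7.43 and 17.3 CPM in MDCK-NBL2 and 122, 120 and 159 CPM in MDCK-II (-3.84 ± 0.42, adjusted p = 8e-05). TOP2A, topoisomerase of dividing cells, was at 6.52, 13.8 and 21.2 CPM against 133, 127 and 180 CPM (-3.39 ± 0.32). In MDCK-NBL2 replicate 1 was the lowest and replicate 3 the highest for both genes, and the groups did not overlap.

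Both the replication and the mitotic genes took part. CDC6, which loads the replicative helicase, was at 2.69, 4.99 and 5.26 CPM against 56.9, 62.2 and 67.4 CPM (-3.81 ± 0.19), and the helicase subunits MCM3, MCM4 and MCM7 differed by -1.73 ± 0.13, -2.02 ± 0.15 and -1.6 ± 0.11. The mitotic cyclin CCNB2 differed by -4.23 ± 0.4 and the mitotic kinase PLK1 by -2.29 ± 0.23. The exception was PCNA, the replication clamp, at 39.3, 34.4 and 49.3 CPM against 34.3, 33.2 and 42.6 CPM (0.16 ± 0.15, adjusted p = 0.41). Among 17 cell cycle brakes, D cyclins and damage response genes, 7 were higher and 4 lower (41.2% and 23.5%, median 0.37). The kinase inhibitors CDKN1A (2910, 1900 and 2340 against 836, 953 and 1100 CPM, 1.3 ± 0.19) and CDKN1B (0.86 ± 0.1) were higher, as were CCND1 (0.76 ± 0.16), CCND2 (0.68 ± 0.12) and CCND3 (0.7 ± 0.13), while CDKN2C (-3.4 ± 0.45) was lower.

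**Figure D4:**
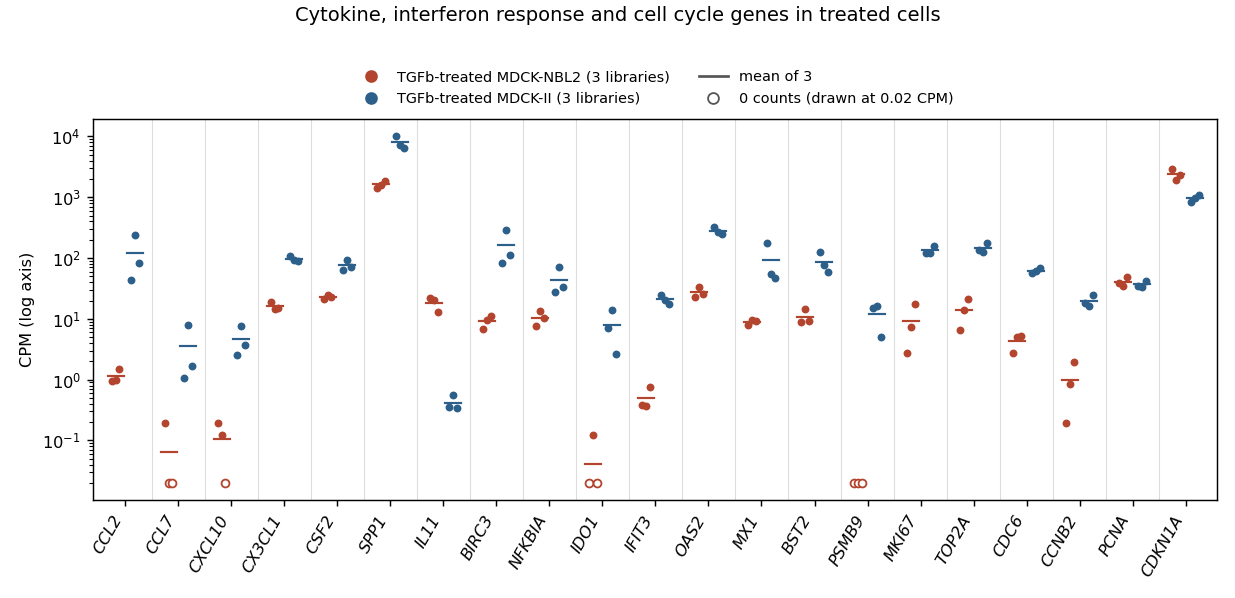
CPM (log axis) of cytokine, NF-kB, interferon response and cell cycle genes in the 3 treated MDCK-NBL2 libraries (red) and the 3 treated MDCK-II libraries (blue), with a line at each mean and open points for 0 counts. Most genes lie higher in all 3 MDCK-II libraries, IL11 and CDKN1A lie higher in all 3 MDCK-NBL2 libraries, and PCNA overlaps.

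Growth factors and their receptors differed in both directions. Of 37 tested, 11 were higher and 16 lower (29.7% and 43.2%, median -0.49). EGF was at 0.384, 0 and 0.301 CPM in MDCK-NBL2 and 77, 88.2 and 98.9 CPM in MDCK-II (-8.71 ± 0.31, adjusted p = 2.1e-07). The EGF receptor ligands AREG (32.6, 11.9 and 29.5 CPM with no count in MDCK-II, at least 365-fold higher) and EREG (489, 493 and 544 against 44.9, 133 and 125 CPM, 2.32 ± 0.34) were the other way round. EGFR was higher by 0.56 ± 0.13, and the related receptor ERBB4 had no count in MDCK-NBL2 and 16.1, 13.7 and 17.3 CPM in MDCK-II (at least 99.8-fold lower). MET, the receptor of hepatocyte growth factor, was lower (-0.85 ± 0.11), IGF2 was lower (-3.16 ± 0.19), and PDGFD had no count in MDCK-NBL2 (at least 53.6-fold lower). FGFR1 did not differ beyond its spread (0.0 ± 0.13) and FGFR2, its epithelial relative, was lower (-1.49 ± 0.15).

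The widest single-gene differences lay between a substantial level and none. Besides COL1A2 and COL1A1, the genes highest in MDCK-NBL2 by the size of the difference were GJA1, the gap junction protein connexin 43 (447, 356 and 413 CPM, at least 6300-fold), PDPN, podoplanin (229, 193 and 365 CPM, at least 4100-fold), the scaffold protein IQGAP2 (at least 1950-fold), the sodium-calcium exchanger SLC8A3 (at least 1280-fold), the endothelin receptor EDNRA (at least 1040-fold) and ADAM19. All but ADAM19 had no count in the 3 MDCK-II libraries. In the other direction were TRPA1, an ion channel (432, 342 and 577 CPM in MDCK-II against 0, 0 and 0.301 CPM, a ratio of 4090, counting interval 1130 to 33800), and DAO, an amino acid oxidase (210, 134 and 178 against 0, 0 and 0.15 CPM, a ratio of 3210, counting interval 577 to 127000). PCSK5, a proprotein convertase (at least 211-fold), CLIC2 (at least 222-fold), the chemokine receptor CCR7 (at least 215-fold), the kinase STK26 (at least 145-fold), DCDC2 (at least 133-fold) and the sulfatase SULF2 (at least 125-fold) had no count in MDCK-NBL2.

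Kidney identity genes differed without a common direction. Of 18 kidney lineage factors tested, 5 were higher and 6 lower (27.8% and 33.3%, median -0.1), and of 15 renal transporters, 6 were higher and 6 lower (40.0% each, median 0.12). PAX8, which marks kidney epithelium, was at 98.8, 88.6 and 102 CPM against 136, 127 and 114 CPM (-0.39 ± 0.1, adjusted p = 0.0099), a call lost with all 24 libraries fitted together (adjusted p = 0.27). PAX2 (-2.75 ± 0.23) was lower and IRX2 (5.25 ± 0.32) was higher. CFTR, a chloride channel, was at 33, 26.3 and 29.5 CPM against 0, 0.256 and 0.558 CPM (6.8 ± 0.37), and CA2, a carbonic anhydrase, was at 68.1, 167 and 116 CPM against 1630, 1790 and 2080 CPM (-3.97 ± 0.3). HOX genes, with 6 of 25 higher and 5 lower, were close to the share of all genes.

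Whether these differences are found without TGFb was read from the 6 untreated day 0 libraries, which share no library with the treated groups. At day 0, 5017 of 11780 genes tested were called between the sublines (42.6%), 2660 higher (22.6%) and 2357 lower (20.0%) in MDCK-NBL2. Of the 3202 genes higher in treated MDCK-NBL2, 1725 were also higher at day 0, which is 53.9% of the treated list and 64.8% of the day 0 list. Of the 3181 lower, 1501 were also lower at day 0 (47.2% and 63.7%). A change of direction was called for 87 and 111 genes, and 1226 and 1514 were tested but not called at day 0. The treated difference was not the same as the day 0 difference for 2939 of 12083 genes (24.3%) in a fit of these 12 libraries, 1517 upward and 1422 downward. The treated cells were sampled at day 4 and the untreated ones at day 0, so TGFb and the days of culture cannot be told apart in this change of difference. The untreated day 4 groups were not used in it.

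Cell cycle genes differed little before treatment. At day 0, 5 of 39 tested were higher and 7 lower in MDCK-NBL2 with a median log2 fold change of 0.03, and for 37 of the 39 the treated difference was lower than the day 0 difference. MKI67 was at 393, 513 and 529 CPM in MDCK-NBL2 and 513, 435 and 465 CPM in MDCK-II at day 0, with overlapping groups. Of 19 collagen modification genes, 6 were higher and 3 lower at day 0, and for 10 of 20 the treated difference was the higher of both. That count was 6 without replicate 1 of treated MDCK-NBL2 or replicate 1 of MDCK-II at day 0, and 6 to 12 over all fits that left out 1 library. PLOD2, for one, differed by -0.54 at day 0 (adjusted p = 0.089) and by 2.22 more in treated cells (adjusted p = 0.00071).

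Other lists differed at day 0 already. Of 14 integrins, 8 were higher and 2 lower at day 0, and of 11 proteoglycan genes, 7 and 2. The difference changed for 5 of 14 integrins upward and 0 downward (3 to 6 and 0 when 1 library was left out). That upward share was larger than the 1517 of 12083 over all genes. Of 13 proteoglycan genes it changed for 1 upward and 2 downward. FN1 (2.28 at day 0) and ITGA5 (5.45) did not pass for a change (0.12 and -0.28, edgeR adjusted p = 0.88 and 0.8). HAS2 (9.43 at day 0) and COL12A1 (7.25) differed less in treated cells (changes -3.54 and -3.38, edgeR adjusted p = 0.00011 and 0.0035). The contractile list had 13 of 21 genes higher and 3 lower at day 0, and the difference changed for 4 genes upward and 2 downward (3 to 6 and 2 to 3 when 1 library was left out). The contractile counts lie near the share of all genes, 1517 upward and 1422 downward of 12083. Interferon response genes were lower for 13 of 24 and higher for 1 at day 0 (median -1). For 3 of 26 the treated difference was lower still, a share close to that of all genes. This count was 1 without replicate 1 or 2 of treated MDCK-II, replicate 1 or 3 of treated MDCK-NBL2, replicate 2 or 3 of MDCK-II at day 0, or replicate 3 of MDCK-NBL2 at day 0. OAS2 was at 10.3, 4.63 and 10.5 CPM in MDCK-NBL2 and 100, 100 and 99.5 CPM in MDCK-II at day 0, a difference of -3.61 ± 0.27, and the treated difference did not differ from it beyond the spread (0.3, adjusted p = 0.55). Chemokine and cytokine genes were lower for 8 of 14 and higher for 3 at day 0 (median -0.91), and inflammatory receptor and NF-kB genes were lower for 14 of 20 and higher for 2 (median -0.85). Of 17 chemokine and cytokine genes the difference changed for 4 upward and 5 downward (0 to 5 and 5 to 6 when 1 library was left out). Both shares were larger than those of all genes, though the upward count depended on single libraries. Of 21 inflammatory receptor and NF-kB genes it changed for 4 upward and 1 downward (1 to 5 and 1 to 2), together close to the 24.3% of all genes.

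EMT factors were higher for 3 of 8 and lower for 1 at day 0. SNAI1 differed by 1.4 (adjusted p = 0.0011) and PRRX2 by 1.85 (adjusted p = 0.0021) before treatment, and their change of difference did not pass (-0.56 for both, adjusted p = 0.21 and 0.24). Among 10 EMT factors the smallest adjusted p for a changed difference was that of FOXC2 (0.81, adjusted p = 0.052), which did not pass. Leaving out 1 library let 2 factors pass without replicate 1 of MDCK-NBL2 at day 0, 1 without replicate 3 of treated MDCK-II and 1 without replicate 3 of treated MDCK-NBL2. CDH1 was higher in MDCK-NBL2 at day 0 (0.35, adjusted p = 0.017), and its difference changed by -0.41 (adjusted p = 0.048), a call lost in 10 of the 12 fits that left out 1 library (adjusted p up to 0.12). GRHL2 was higher at day 0 as well (0.5, adjusted p = 0.012) and changed by -0.76 (adjusted p = 0.021), which did not pass in 3 of the 12 such fits (adjusted p up to 0.055).

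Replicate 1 of MDCK-NBL2 at day 0 held genes of the other subline. TRPA1 was at 44.2 CPM in it, 0.132 and 0.539 CPM in the other MDCK-NBL2 day 0 libraries and 446 to 518 CPM in MDCK-II, and DAO was at 25.5 against 0.198 and 0.269 CPM. Without this library 5478 genes differed at day 0. Values from fits without it are given below for CDH2, PLOD2 and ADAMTS2, and are not given for most other genes.

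Levels in the other groups place these differences. ACTA2 was at 0.621, 0.471 and 1.32 CPM in MDCK-II at day 0 and 6.37, 7.54 and 22.1 CPM in MDCK-NBL2, both far below the treated MDCK-NBL2 level. Its day 0 difference was 4.07 (edgeR adjusted p = 0.0015), and the change of difference did not pass (3.02, edgeR adjusted p = 0.093). MMP13 was at 15.4 to 43.3 CPM in MDCK-II at day 0 and at 834 to 1730 CPM after treatment, whereas MDCK-NBL2 had 4.99 to 35.7 CPM and 15.5 to 26.4 CPM, and the difference of differences was -5.14 (adjusted p = 0.0011). LAMC1 was even at day 0 (0.01) and differed by 1.76 more in treated cells (adjusted p = 0.00011). In the untreated day 4 groups, which were not tested, LAMC1 was already apart. It was at 717, 708 and 475 CPM in MDCK-NBL2 and at 265, 296 and 300 CPM in MDCK-II. Treated MDCK-NBL2 cells with the control siRNA had ACTA2 at 1430, 1090 and 1390 CPM, COL1A1 at 1770, 1940 and 1760 CPM, MKI67 at 24.2, 7.51 and 8.09 CPM and CDH1 at 727, 931 and 898 CPM. With the siRNA against PRRX1, ACTA2 was at 229, 178 and 115 CPM, COL1A1 at 1500, 1250 and 887 CPM, MKI67 at 2.47, 4.97 and 0.989 CPM and CDH1 at 1150, 1390 and 1550 CPM. These groups were not tested here. Replicate 2 of the group labelled untreated MDCK-NBL2 at day 4 stood apart from its group, with COL1A1 at 596 CPM where the other two had no count, and it entered none of the main tests.

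**Figure D5:**
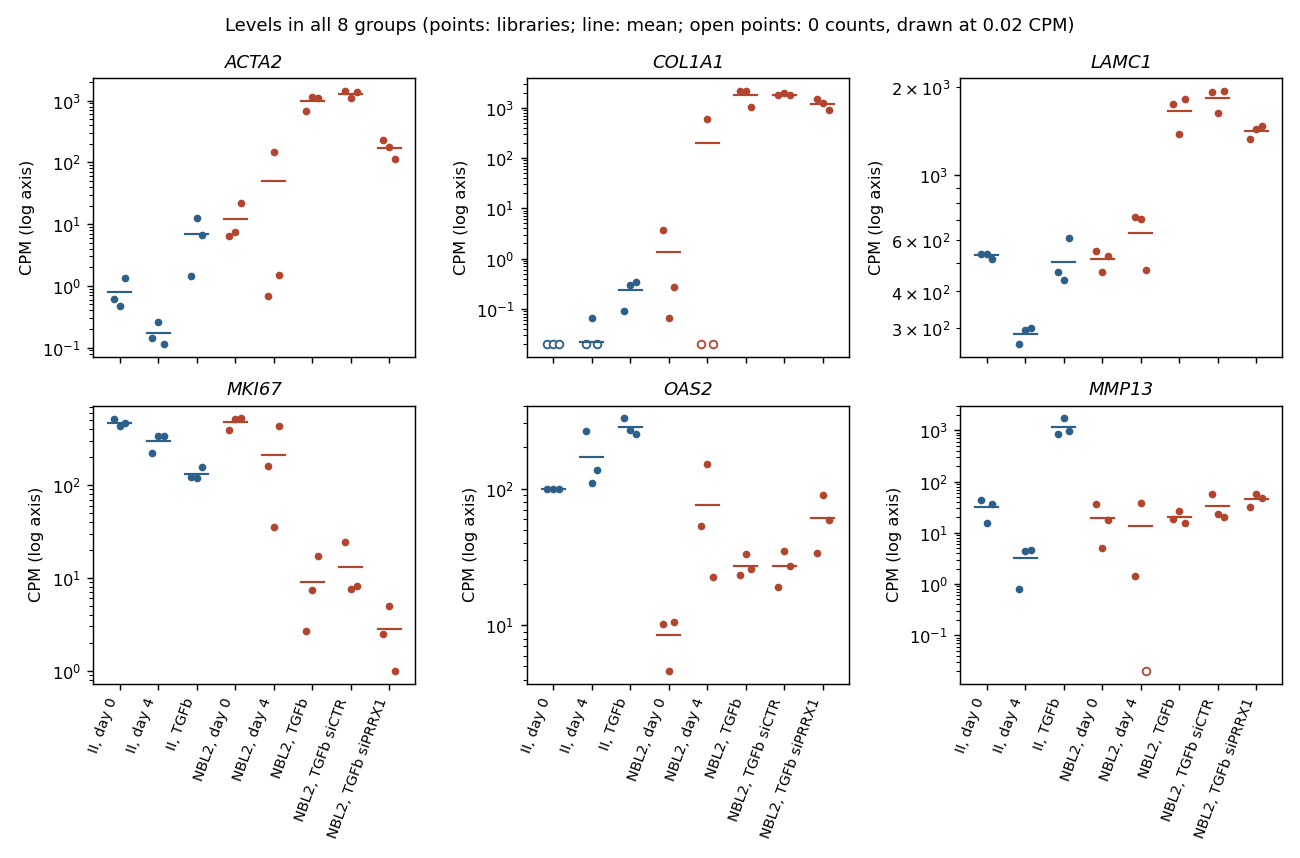
CPM (log axis) of 6 genes in the 8 groups of the series, 3 libraries each (points) with the mean (line), MDCK-II in blue and MDCK-NBL2 in red, and open points for 0 counts. MKI67 and LAMC1 are level between the sublines at day 0 and separate in the treated groups, and LAMC1 is also separate in the untreated day 4 groups. OAS2 is separate both at day 0 and in the treated groups, and MMP13 is high in treated MDCK-II.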

How the data were processed

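RNA was extracted with illustra RNAspin and sequenced as stranded mRNA libraries, per the labels' protocols. The authors deposited a table of whole-number read counts per gene. STAR 2.5.3a, RSEM 1.3.0, FastQC and the CanFam3.1 build are named per the submitters' processing notes, with no role stated, and for annotation and strand setting the sources used here give nothing. Counts of genes that share reads with a close copy or an overlapping gene are therefore uncertain. The table held 32704 genes, 18660 with a symbol.

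The 6 treated libraries were fitted alone with edgeR 4.0.16 in R 4.3.3 (quasi-likelihood test, TMM, genes kept by filterByExpr at counts of 10 per library and 15 in total, prior count 0.125), leaving 4 residual degrees of freedom and a biological coefficient of variation of 13.8%. The Benjamini-Hochberg adjustment ran over all genes tested. The 6 day 0 libraries were fitted likewise, and the change of difference in a fit of all 12 was added after seeing the data. Without counts in 1 group, folds are lower bounds against 3 counts over the group, and with 1 to 3 counts ratios have exact 95% intervals, which cover counting error only. The procedure was tested on simulated data.

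The members and gene lists were chosen with earlier results of these data known. Named by rule were the tested EMT factors and 11 set genes, the 8 largest non-overlapping differences each way at 10 CPM or more, and up to 4 called members of each list with the smallest adjusted p. Other members were named after their values were seen, and some members counted in the lists are not reported here by name. Alternatives were DESeq2 1.42.0 (with its size factors also in edgeR), no filter, a replicate block, leaving out each library, and fits of all 24 libraries.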

Additional observations from a re-analysis of the deposited data

Results flagged for a closer look

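Of 213 list members and named genes described here, 9 had libraries that overlapped in neither condition and lay in the opposite order at day 0. All 9 passed the test of a changed difference in the 12-library edgeR fit. The same 12 libraries served to pick them, so this pass adds no independent support. They were picked out after their values were seen.

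CDH2 differed by a log2 fold change of -1.44 in treated cells and 1.37 at day 0, where MDCK-NBL2 stood at 19.7, 6.84 and 5.25 CPM and MDCK-II at 5.18, 3.26 and 4.8 CPM. The change of difference was -2.75 (edgeR adjusted p = 0.014). The day 0 difference did not pass on its own (adjusted p = 0.056). Replicate 1 of MDCK-NBL2 was the highest day 0 library, and it is the library that also held genes of MDCK-II. Without it the change was -1.98 (adjusted p = 0.012).

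TJP3 differed by -1.9 in treated cells and 1.0 at day 0, where MDCK-NBL2 stood at 50.7, 49.1 and 39.5 CPM and MDCK-II at 19.2, 22.8 and 31.6 CPM. The change of difference was -2.83 (edgeR adjusted p = 3.5e-05). Both single differences passed the test.

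SERPINE2 (-1.24 in treated cells, 1.04 at day 0) changed by -2.22 (edgeR adjusted p = 0.0004), and the mitotic kinase PLK1 (-2.29 and 0.64) by -2.87 (edgeR adjusted p = 9.4e-05). The collagen enzymes PLOD2 (1.61 and -0.54) and ADAMTS2 (2.05 and -1.49) changed by 2.22 and 3.67 (edgeR adjusted p = 0.00071 for both). Without replicate 1 of MDCK-NBL2 the day 0 difference was -0.91 for PLOD2 and -2.46 for ADAMTS2. CCN2 (0.65 and -0.89) changed by 1.61 (edgeR adjusted p = 0.015) and OCLN (0.37 and -0.11) by 0.54 (edgeR adjusted p = 0.0051). SMAD4 (0.17 and -0.15) changed by 0.38 (edgeR adjusted p = 0.047) and lost this call in 10 of the 12 fits that left out 1 library. On their own, the day 0 differences of PLOD2, OCLN and SMAD4 did not pass (edgeR adjusted p = 0.089, 0.25 and 0.28). The treated differences of CCN2 and SMAD4 did not pass either. The day 0 call of ADAMTS2 (edgeR adjusted p = 0.04) was lost in 5 of the 6 day 0 fits that left out 1 library.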

How the results depend on the processing

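The 6383 genes called between the treated sublines became 6372 with DESeq2 size factors, 5929 with the DESeq2 Wald test, 6868 without a filter, 5431 to 6054 when 1 library was left out, 5728 with all 24 libraries in 1 fit, 5425 with the library number series added and 6392 without replicate 2 of the group labelled untreated MDCK-NBL2 at day 4. With the replicate block the count was 6568, at day 0 5261 in place of 5017, and for the change of difference 3082 in place of 2939. Same-numbered libraries of the 2 sublines correlated at 0.073, 0.07 and 0.17, so the numbers were not taken to pair them, though every library correlated best with its own number. Leaving out 1 library gave 3734 to 5478 genes at day 0 and 2142 to 3280 for the change of difference. Of 147 named genes, 134 kept their call in all 13 alternatives, 13 changed it in some and 0 reversed. ZEB2 passed with the replicate block (1.33, adjusted p = 0.013), and SNAI2 passed without replicate 2 of MDCK-II (0.87, adjusted p = 0.025). SNAI1 did not pass with all 24 libraries (adjusted p = 0.054). Of 858 list counts in the treated comparison, 799 stayed within 1.5 times. The treated libraries held 6134929 to 27500500 counts, which limits what a count of 0 shows. The causes were not tested.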

Other observations

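Sterol and fatty acid synthesis genes were more often lower in treated MDCK-NBL2 than in treated MDCK-II. Of 21 tested, 2 were higher and 13 lower (9.52% and 61.9%, against 27.6% and 27.4% of all genes), with a median log2 fold change of -0.54. INSIG1, which holds sterol regulatory proteins in the endoplasmic reticulum, was at 224, 176 and 108 CPM against 1180, 1030 and 853 CPM (-2.6 ± 0.25, edgeR adjusted p = 4e-05). MVD, an enzyme of the mevalonate pathway, was at 81.7, 107 and 87.8 CPM against 323, 258 and 236 CPM (-1.57 ± 0.15). ACACA, which makes malonyl-CoA for fatty acids, differed by -1.45 ± 0.16. At day 0, 1 of these 21 genes was higher and 9 were lower, against 22.6% and 20.0% of all genes tested at day 0.

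Glycolysis and hypoxia genes had no common direction in treated cells, with 5 of 23 higher and 5 lower (median -0.08). These are 21.7% each, against 27.6% and 27.4% of all genes. At day 0, 9 of 24 were higher and 4 lower. The difference changed for 0 of 24 upward and 7 downward, against 1517 and 1422 of 12083 genes. Leaving out 1 library gave 0 to 3 upward and 4 to 8 downward. Among the lower genes in treated cells, HK2, a hexokinase, was at 59.1, 43.5 and 35.3 CPM against 173, 190 and 201 CPM (-2.04 ± 0.18). NDRG1, a stress-responsive gene, was lower too, at 214, 212 and 265 CPM against 1290, 1440 and 1330 CPM (-2.57 ± 0.13).

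Some genes were present in 1 treated subline with no count in the other. With a mean of at least 10 CPM in treated MDCK-NBL2 and no count in the 3 treated MDCK-II libraries there were 24 genes, and 18 of them had no count in any of the 9 MDCK-II libraries. Of the 24, 13 were already at 10 CPM or more in MDCK-NBL2 at day 0 and 11 were under it. SLC8A3, GASK1B and SLC10A4 had no count in MDCK-NBL2 at day 0. In the other direction there were 12 such genes, among them ERBB4, CLIC2 and PSMB9, and 10 of them were at 10 CPM or more in MDCK-II at day 0. The exceptions were CCR7, with a mean of 4.49 CPM, and GATA4, with 9.57 CPM.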
